A study of Mus musculus with 6 samples.

Results

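The collagen gene family was examined in the mouse first molar. Members were the rows of the deposited normalised table whose whole gene symbol reads Col, digits, the letter a and digits, with Col17a1 left out; 42 of the 20162 rows matched that pattern and 41 were kept. They comprised 11 fibrillar collagens, 9 network-forming collagens, 8 fibril-associated collagens (FACIT) and 13 others. Total RNA came from first molars at postnatal day 7, taken from wild-type (WT) mice and littermates in which the adhesion G-protein coupled receptor gene Gpr115 (Adgrf4) was knocked out (Gpr115-KO), all on a C57BL/6 background. Each genotype was represented by 3 libraries. The labels give neither the deleted part of the gene nor whether a library is 1 animal or a pool, so p-values speak only for the spread among the libraries at hand.

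Collagens are proteins of the extracellular matrix in which 3 chains wind into a triple helix. The tight packing of the helix leaves room for glycine alone at its core, so helical stretches are written in the gene as an unbroken series of triplets that each begin with a glycine codon. In the tooth, odontoblasts secrete a matrix made mainly of type I collagen that mineralises to dentin, bone cells around the germ make the same collagen, pulp and dental follicle also hold type III, and basement membranes at the epithelium, vessels and nerves hold type IV. The enamel matrix made by ameloblasts is largely free of collagen.

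Collagen genes differ in how the glycine series is laid out, and 5 coding stretches are shown as examples. Each line gives 90 bases of the coding sequence, 5′ to 3′, of the transcript with the longest reading frame in the GENCODE annotation of GRCm38. Capitals mark glycine codons (GGN, read in frame). Col1a1 and Col1a2 are examples from the fibrillar class, Col4a1 from the network class, Col12a1 from the FACITs, and Col23a1 from the remaining genes. They need not be typical of their class.
Col1a1: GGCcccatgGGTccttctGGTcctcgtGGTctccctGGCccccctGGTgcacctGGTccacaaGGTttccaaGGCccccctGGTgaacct
Col1a2: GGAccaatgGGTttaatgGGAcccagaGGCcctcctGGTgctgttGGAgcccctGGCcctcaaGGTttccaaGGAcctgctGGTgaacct
Col4a1: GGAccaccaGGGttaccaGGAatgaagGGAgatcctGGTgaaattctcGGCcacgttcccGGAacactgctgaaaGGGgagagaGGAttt
Col12a1: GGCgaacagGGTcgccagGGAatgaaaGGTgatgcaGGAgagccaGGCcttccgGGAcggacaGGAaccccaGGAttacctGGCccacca
Col23a1: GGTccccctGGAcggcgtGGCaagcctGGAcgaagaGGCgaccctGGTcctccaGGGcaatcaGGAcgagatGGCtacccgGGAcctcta
In the Col1a1 and Col1a2 stretches, which open the long helix, each triplet opens with a glycine codon and the codons between are rich in proline codons (ccn). The Col4a1 stretch was cut at the end of its longest run, so the spacing of the capitals breaks there. Those of Col1a1, Col1a2, Col12a1 and Col23a1 open the longest run of the gene, so they are unbroken by the choice of window. The stretches therefore do not compare the classes.

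Counted over whole coding sequences, 9 of the 11 fibrillar genes had a longest run of 337 to 344 triplets, 338 in Col1a1 and 344 in Col3a1. The exceptions were Col24a1 and Col27a1, with 216 and 217. The 6 type IV genes were cut up instead: Col4a1 had 22 runs of 5 or more triplets, the longest of 40, and Col4a2 had 24, the longest of 66. Type IX genes (Col9a1, Col9a2, Col9a3) each had a longest run of 113. In Col12a1 the runs made up 8.22% of the codons, against 73.3% in Col1a1, 79.6% in Col4a1 and 69.4% in Col23a1. Col12a1 was the lowest of the family, and among the FACITs the share reached 86.9% in Col9a3. The network genes Col8a1, Col8a2 and Col10a1 had 9 runs each.

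**Figure D1:**
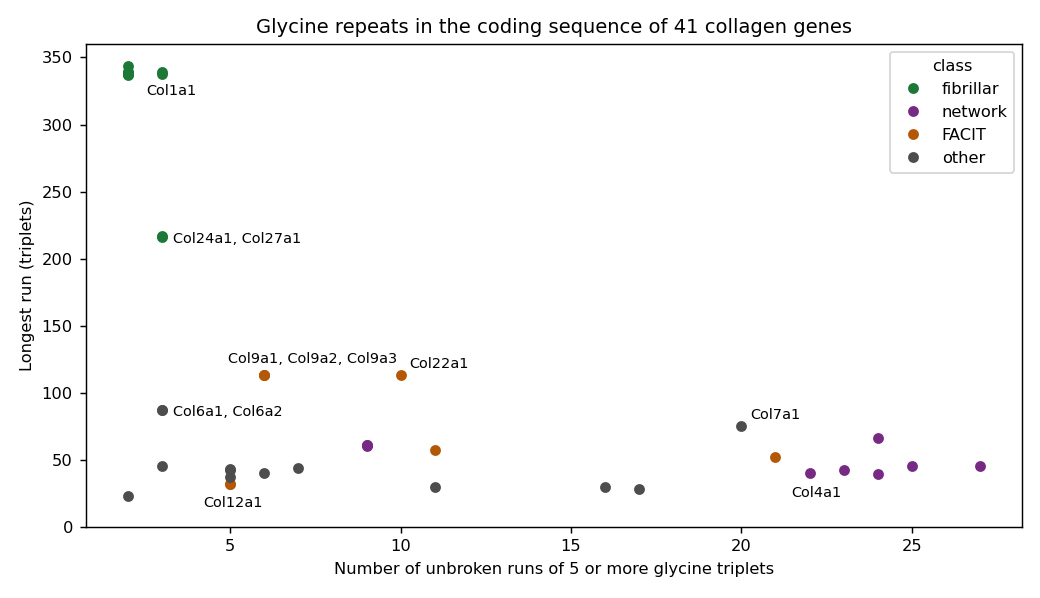
Longest unbroken glycine run (vertical axis, triplets) against the number of runs of 5 or more triplets (horizontal axis) for the 41 collagen genes, coloured by class; points with equal values overlap. Fibrillar genes sit at the top left with few long runs, 337 to 344 triplets in 9 of 11, and type IV genes at the lower right with 22 to 27 shorter ones.

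Libraries held 8317302 to 11122821 counts, so that 1 count was worth 0.0907 to 0.114 normalised CPM (counts scaled to a common library size by TMM) and the 3 counts taken as the detection floor 0.272 to 0.342 CPM. Gpr115-KO replicate 2 stood apart from the other 5: ameloblast markers took 19.6% of its counts against 10.2% to 13.5% elsewhere, and skeletal muscle markers summed to 196 CPM against 19.1 to 53.2 CPM. The ameloblast excess was not shared by the whole list. Its median was lowest in that library, at 1473 CPM against 4583 to 7942 CPM elsewhere. Adgrf4 itself read 67.1, 62.5 and 67.5 CPM in WT against 39.2, 20.6 and 27.5 CPM in Gpr115-KO. In bulk RNA of this kind, fewer cells of a type and less RNA per cell cannot be told apart.

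Collagen transcripts made up a large part of the molar RNA. They took 4.07%, 6.78% and 8.0% of all counts in WT replicates 1 to 3 and 6.64%, 4.43% and 7.73% in Gpr115-KO replicates 1 to 3 (95% Wilson half-width at most 0.0169 percentage points, counting error only). The means were 6.28 ± 2.01% (SD, n = 3) and 6.27 ± 1.68% (SD, n = 3), and the libraries of both genotypes overlapped. With the ameloblast marker counts taken out of the denominator, the means were 7.20% and 7.26%. The spread within WT, from 4.07% to 8.0%, was far wider than the distance between the genotype means.

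Almost all of it came from 6 fibrillar genes. Col1a1 gave 74.7% to 81.2% of the collagen counts of a library, Col1a2 gave 15.1% to 19.3% and Col3a1 gave 1.05% to 3.12%. With Col5a2, Col11a1 and Col11a2 they reached 98.9% to 99.5%. The other 3 classes were small in every library: the network genes summed to 69.9 to 89.0 CPM, the FACITs to 90.9 to 133 CPM and the remaining collagens to 130 to 177 CPM.

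To compare genes of different length, levels were also expressed as CPM per kb of the coding transcript. On that scale Col1a1 led in WT with 8708 ± 3278 (SD, n = 3), followed by Col1a2 with 2068 ± 670 and Col3a1 with 198 ± 33.5. A second tier held Col11a2 (72.1 ± 23.4), Col5a2 (45.7 ± 10.8) and Col11a1 (40.0 ± 11.7). Their SDs overlap, but within every library of both genotypes the genes stood in this order. It also held with union-of-exons lengths (56.6, 31.6 and 24.1 in WT). Without a length correction Col5a2 and Col11a1 were close, at 303 and 307 CPM in WT. After a gap came a group led by the transmembrane collagen gene Col23a1 (8.91 ± 1.71), Col27a1 (7.33 ± 1.0), Col4a1 (6.06 ± 1.18), Col12a1 (5.65 ± 0.979) and Col6a1 (5.27 ± 0.290). Within that group the SDs of neighbours in the order overlapped, while those of Col23a1 did not reach Col12a1 or Col6a1. Col6a6 stood last at 0.00772, from 2 counts in a single WT library. Col23a1 was singled out after its values were seen.

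**Figure D2:**
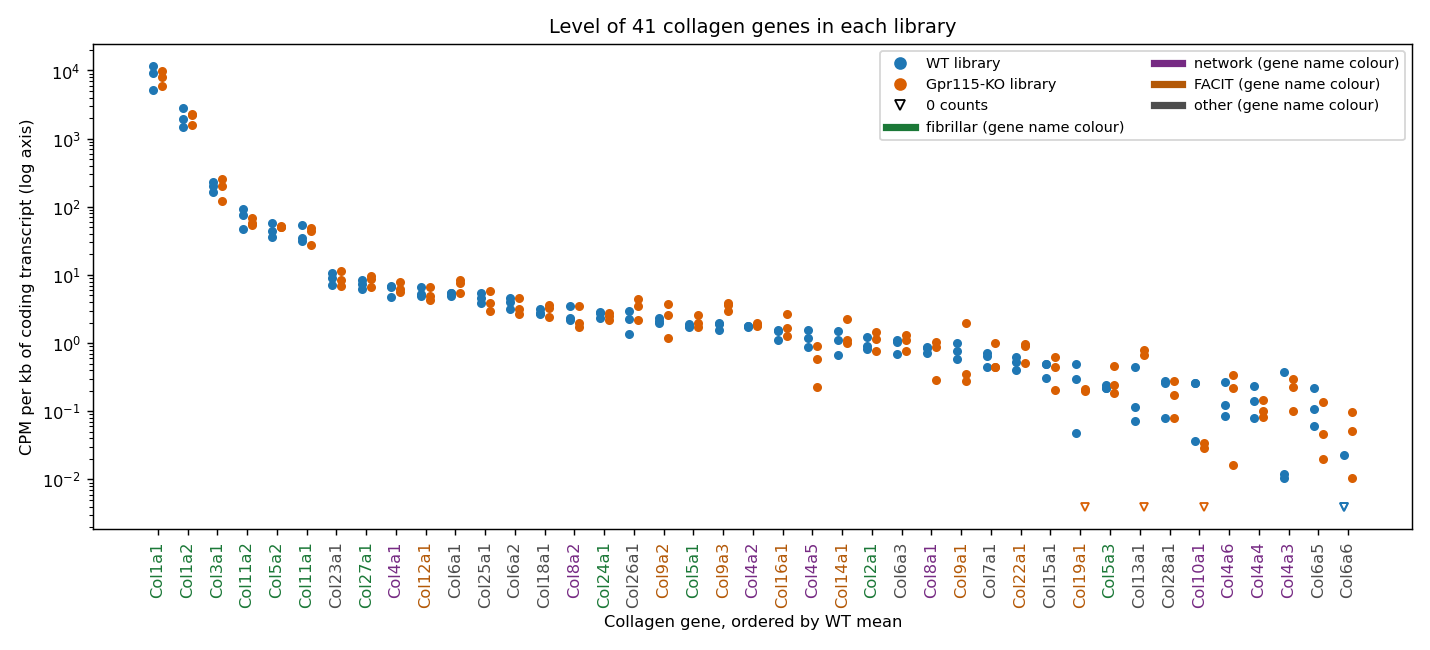
Level of the 41 collagen genes in every library, as CPM per kb of coding transcript on a log axis, ordered by the WT mean; blue points are WT libraries, orange points Gpr115-KO libraries, open triangles mark 0 counts, and gene names are coloured by class. Col1a1 and Col1a2 stand far above the rest, the points of both genotypes lie over each other for nearly every gene, and the scatter widens toward the rare genes at the right.

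For the genotype difference, each gene was tested with edgeR's quasi-likelihood test across all 16011 genes that passed the count filter, with Benjamini-Hochberg adjustment over all of them. Of the 41 collagens, 37 could be tested, and 0 were called at an adjusted p under 0.05, where 0.15% of all genes were called. The DESeq2 and limma-voom fits also called 0 collagens. At an unadjusted p under 0.05 there were 3 (Col9a3, Col4a5 and Col6a1), or 8.11% against 12.3% of all genes tested. Col9a3 was the single member whose 3 Gpr115-KO libraries all lay on one side of the 3 WT libraries, or 2.70% against 17.5%. Both shares lie below the background in this fit.

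Fold changes of Gpr115-KO over WT lay above 0 for 23 tested collagens (62.2%, against 51.3% of all genes tested) and below 0 for 14. Their median was 0.12 on the log2 scale, against 0.013 for all genes tested, and 31 of the 37 (83.8%) stayed within 0.5 of no change, against 79.1% of all genes. By class the medians were 0.017 for the fibrillar genes, −0.027 for the network genes, 0.39 for the FACITs and 0.046 for the others. The tested collagens had a median exonic length of 7621 bp against 4555 bp for protein-coding genes tested, and a GC content of 55.7% against 49.7%. With an offset for exonic length the median of the collagens was 0.21, against 0.050 for all genes. With an offset for GC content it was 0.044, close to the 0.040 of all genes.

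**Figure D3:**
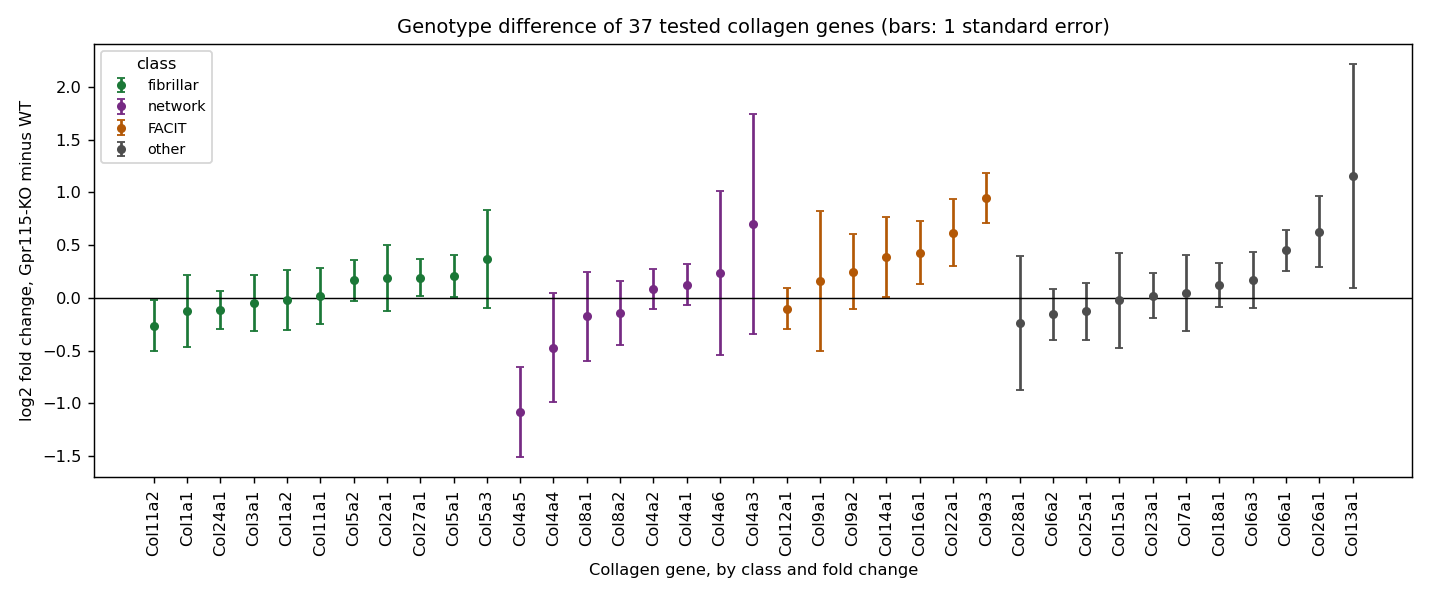
Fitted log2 fold change (Gpr115-KO minus WT) of the 37 tested collagen genes, by class and then by size; bars are 1 standard error. Most points lie within 0.5 of the line at 0, Col4a5 (−1.08) and Col9a3 (0.95) lie farthest out relative to their errors, and none passed the adjusted threshold.

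The type I chains are the main fibril-forming collagen of dentin and bone. Col1a1 (ENSMUSG00000001506, chr11:94936224-94953042, plus strand, GRCm38) read 30636, 55274 and 69001 CPM in WT against 48211, 35512 and 58103 CPM in Gpr115-KO. Col1a2 (ENSMUSG00000029661, chr6:4504814-4541544, plus strand) read 7937, 10269 and 14967 CPM in WT against 12166, 8504 and 12035 CPM in Gpr115-KO. Both genes were lowest in WT replicate 1 and highest in WT replicate 3, so the WT libraries enclosed all Gpr115-KO libraries. The log2 fold change was −0.13 (SE 0.34, adjusted p = 0.909) for Col1a1 and −0.020 (SE 0.28, adjusted p = 0.984) for Col1a2.

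Summed markers of the cells that make type I collagen were spread in much the same libraries. Summed odontoblast markers, which Dspp (dentin sialophosphoprotein) dominates, read 4397, 6934 and 8777 CPM in WT against 8216, 3645 and 10140 CPM in Gpr115-KO. Summed bone osteoblast markers read 1339, 1849 and 2291 CPM in WT against 2103, 1441 and 2211 CPM in Gpr115-KO. In both sums WT replicate 1 was the lowest WT library and Gpr115-KO replicate 2 the lowest knockout library, as for Col1a1 and Col1a2. The median of the bone list was lowest in the same libraries. That of the odontoblast list was not, at 106, 103 and 176 CPM in WT against 128, 118 and 114 CPM in Gpr115-KO. The part of these cells in the collagen values was not tested. Of the 6 tested odontoblast markers and 8 tested bone markers 0 were called, also with DESeq2. In each list 1 had an unadjusted p under 0.05 (16.7% and 12.5%, against 12.3% of all genes tested). These were Wnt10a, a Wnt ligand of odontoblasts and dental epithelium (log2 fold change 0.51, adjusted p = 0.311), and Runx2, a bone transcription factor that also lies on chromosome 17 (−0.52, adjusted p = 0.333; −0.29 without WT replicate 2). The libraries of both genes were separate, again 16.7% and 12.5% of the lists, against 17.5% of all genes tested. The second named marker of each list was Dmp1, a dentin and bone matrix protein (−0.41, adjusted p = 0.617), and Spp1, osteopontin (0.83, adjusted p = 0.655). Single libraries decided both values: Dmp1 was −0.061 without WT replicate 3 and −0.19 without Gpr115-KO replicate 2, and Spp1 was 0.16 without Gpr115-KO replicate 1 and 1.27 without replicate 3.

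Col3a1, the type III collagen of pulp and loose connective tissue (ENSMUSG00000026043, chr1:45311538-45349706), ran the other way among the WT libraries. It read 1280, 1120 and 908 CPM in WT against 1106, 686 and 1407 CPM in Gpr115-KO, highest of the WT libraries in replicate 1, where type I was lowest. The knockout libraries overlapped the WT range on both sides, and the log2 fold change was −0.048 (SE 0.26, adjusted p = 0.956). Leaving out Gpr115-KO replicate 2 turned it to 0.19.

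Types V and XI are minor fibrillar collagens that are built into type I and type II fibrils and limit their width. Col5a2 read 236, 293 and 379 CPM in WT against 352, 337 and 330 CPM in Gpr115-KO (log2 fold change 0.17, SE 0.19, adjusted p = 0.771), so the knockout libraries were tightly grouped inside the WT range. Col11a1 read 243, 268 and 410 CPM in WT against 379, 209 and 344 CPM in Gpr115-KO (0.017, SE 0.26, adjusted p = 0.986). Col11a2 read 257, 403 and 508 CPM in WT against 314, 288 and 371 CPM in Gpr115-KO (−0.26, SE 0.24, adjusted p = 0.696). Col11a2 lies on chromosome 17, the chromosome of Adgrf4, which holds 18 of the 24 genes called in the whole table; Col11a2 is not among them and its libraries overlapped. Col5a1 was far rarer than its partner Col5a2, at 14.9, 14.4 and 16.3 CPM in WT against 16.6, 21.6 and 14.5 CPM in Gpr115-KO (0.21, SE 0.20, adjusted p = 0.717).

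The remaining fibrillar genes named here were low and also overlapped between genotypes. Col27a1, known from cartilage, read 48.0, 63.2 and 56.3 CPM in WT against 67.2, 73.0 and 51.0 CPM in Gpr115-KO (log2 fold change 0.19, SE 0.18, adjusted p = 0.702). Col24a1, known from developing bone, read 17, 19.4 and 20.5 CPM in WT against 17.7, 19.5 and 15.4 CPM in Gpr115-KO (−0.12, SE 0.18, adjusted p = 0.833). These errors were among the smallest in the family. Col2a1, the main cartilage collagen, was present at 4.21 to 6.30 CPM in WT against 3.93 to 7.52 CPM in Gpr115-KO (0.19, SE 0.31, adjusted p = 0.846).

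**Figure D4:**
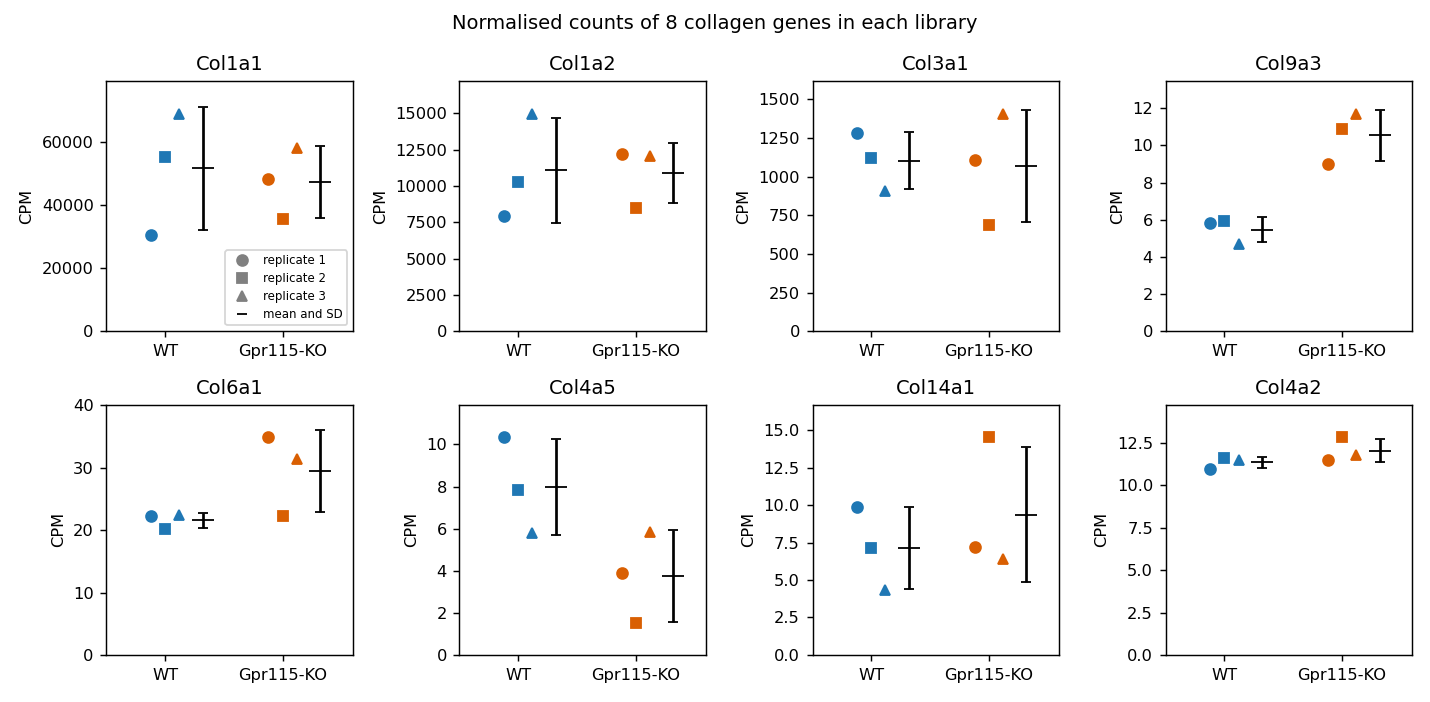
Normalised counts (CPM, linear axes from 0) of 8 collagen genes in each library; symbols mark the replicate number, and the black bar gives the mean and SD of 3 libraries. Col1a1 and Col1a2 vary more among WT libraries than between genotypes, Col9a3 separates the genotypes (4.68 to 5.91 against 9.0 to 11.7 CPM), Col6a1 and Col4a5 nearly do, Col14a1 is highest in knockout replicate 2, and Col4a2 hardly varies.

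Among the network collagens, Col4a1 and Col4a2 encode the chains of the basement membrane network found in most tissues. They lie head to head on chromosome 8, and the first exons of their gene models share 22 bp on opposite strands. Col4a1 read 43.9, 31.1 and 45.3 CPM in WT against 52.8, 40.9 and 37.7 CPM in Gpr115-KO (log2 fold change 0.12, SE 0.19, adjusted p = 0.837). Col4a2 was among the steadiest genes of the family, at 11, 11.6 and 11.5 CPM in WT against 11.5, 12.8 and 11.8 CPM in Gpr115-KO (0.086, SE 0.19, adjusted p = 0.889), a coefficient of variation of 2.92% in WT.

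Col4a5, an X-linked chain of the type IV networks that is best known from the kidney glomerulus (ENSMUSG00000031274, chrX:141475385-141689234), had the lowest fitted fold change of the family. It read 10.3, 7.84 and 5.79 CPM in WT against 3.87, 1.5 and 5.85 CPM in Gpr115-KO. Knockout replicate 3 lay just above WT replicate 3, so the groups overlapped. The log2 fold change was −1.08 (SE 0.43, unadjusted p = 0.0282, adjusted p = 0.345), and over the alternative fits the adjusted p ranged from 0.0544 to 0.845. Without Gpr115-KO replicate 2 the fold change was −0.71. Endothelial and mural markers, from cells that lay down type IV collagen, had a median log2 fold change of −0.24. They summed to 8186, 2877 and 5488 CPM in WT against 2855, 2095 and 2879 CPM in Gpr115-KO, nearly all of it Rgs5, a gene known from mural cells. Acta2, another mural gene of the list, read only 11.8 to 34.0 CPM, and the cell source of the Rgs5 counts was not tested. Without the weight of Rgs5, the median of the list ran from 11.7 to 14.7 CPM in WT and from 8.50 to 12.7 CPM in Gpr115-KO. The part of these markers in the Col4a5 values was not tested. Rgs5 (−1.10, adjusted p = 0.268) and Acta2, smooth muscle actin (−0.34, adjusted p = 0.687), did not pass the test. Rgs5 was called by DESeq2 (adjusted p = 0.0342) and by edgeR without the count filter (adjusted p = 0.0037), and its fold change was −0.69 without WT replicate 1.

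Col10a1, the collagen of hypertrophic cartilage, was too rare to test, with 9, 1 and 8 counts in WT and 0, 1 and 1 counts in Gpr115-KO. Every knockout library and WT replicate 2 lay under the floor of 3 counts. Of the cartilage markers, Matn1 and Snorc had 0 counts in all 6 libraries, and Acan (aggrecan) had 4 to 13 counts.

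FACIT collagens sit on the surface of fibrils. Here 6 of the 7 tested lay above 0. Type IX collagen, best known from the surface of cartilage type II fibrils, supplied the gene with the smallest p of the family. Col9a3 (ENSMUSG00000027570, chr2:180597790-180622189, plus strand) read 5.80, 5.91 and 4.68 CPM in WT against 9.0, 10.9 and 11.7 CPM in Gpr115-KO. All 3 knockout libraries were above all 3 WT libraries, with means of 10.5 ± 1.39 against 5.46 ± 0.684 CPM (SD, n = 3). The log2 fold change was 0.95 (SE 0.23, unadjusted p = 0.00194), but the adjusted p was 0.195. Over the alternative fits it ranged from 0.0568 to 0.611, and the fold change from 0.83 to 1.05.

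The exons of Col9a3 overlap those of Tcfl5, a transcription factor gene on the opposite strand, over 234 bp or 6.07% of the Col9a3 exons. The library kit, Nextera XT, does not mark strand, so reads from that stretch cannot be assigned to either gene from the strand. Tcfl5 read 1.09, 0.682 and 0.102 CPM in WT against 1.14, 2.03 and 0.915 CPM in Gpr115-KO (log2 fold change 1.09, SE 0.68, adjusted p = 0.551). The counts in the overlap cannot be separated in these tables, and their part in the Col9a3 values was not tested.

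The partner chains of Col9a3 showed no separation of the genotypes. Col9a2 read 6.80, 5.68 and 6.20 CPM in WT against 3.53, 7.59 and 11 CPM in Gpr115-KO (log2 fold change 0.25, SE 0.36, adjusted p = 0.822). Col9a1 read 2.27, 3.86 and 2.95 CPM in WT against 1.37, 1.07 and 7.50 CPM in Gpr115-KO (0.16, SE 0.67, adjusted p = 0.944), a difference that rested on knockout replicate 3: without it the fold change was −1.30. For both genes the knockout libraries enclosed the WT libraries. Cartilage markers passed the filter for 4 of 9 genes, with 2 above 0, 2 below and a median of −0.18. The 2 named here have the smallest p of the list and both lay below 0. Sox9, a transcription factor of cartilage and of other cells of the germ, was at 1007 to 1239 CPM in WT against 682 to 990 CPM in Gpr115-KO (−0.45, adjusted p = 0.399). It was not called, and was the only tested gene of the list with separate libraries (25.0%, against 17.5% of all genes tested). Cnmd, chondromodulin, had a fold change of −0.52 (adjusted p = 0.598).

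Types XII and XIV decorate type I fibrils in dense connective tissue such as the periodontal ligament. Col12a1 was the most abundant FACIT, at 77.7, 56.1 and 61.3 CPM in WT against 56.5, 75.8 and 49.6 CPM in Gpr115-KO (log2 fold change −0.10, SE 0.19, adjusted p = 0.868). Col14a1 read 9.88, 7.16 and 4.37 CPM in WT against 7.18, 14.5 and 6.40 CPM in Gpr115-KO (0.39, SE 0.38, adjusted p = 0.719). Both were highest among the knockout libraries in replicate 2, the one with 196 CPM of summed skeletal muscle markers. Without that library the Col14a1 fold change was −0.077, and the median of the FACITs was 0.16 in place of 0.39. All 6 tested muscle markers lay above 0, with a median of 1.18 and 0 at an adjusted or unadjusted p under 0.05 by edgeR or DESeq2; Mylpf, a myosin light chain, read 39.2 CPM in that library against 5.36 to 10.5 CPM in the other 5. Tnni2, fast troponin I, had a fold change of 1.04 (adjusted p = 0.565), and −0.036 without that library. The part of muscle or other adjoining tissue in these values was not tested.

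Type VI collagen forms beaded filaments around cells and takes 1 chain each of Col6a1, Col6a2 and one more, such as Col6a3. Col6a1 (ENSMUSG00000001119, chr10:76708792-76726168, minus strand) read 22.2, 20.2 and 22.4 CPM in WT against 34.9, 22.2 and 31.5 CPM in Gpr115-KO. Knockout replicates 1 and 3 lay above every WT library, and replicate 2 fell among them. The log2 fold change was 0.45 (SE 0.19, unadjusted p = 0.0390), with an adjusted p of 0.371 that ranged from 0.329 to 0.803 over the alternative fits.

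Its partners were lower and less far apart. Col6a2 read 18, 15.8 and 12.5 CPM in WT against 10.7, 12.6 and 18.1 CPM in Gpr115-KO (log2 fold change −0.16, SE 0.24, adjusted p = 0.835). Col6a3 read 10.3, 11.1 and 7.01 CPM in WT against 11.1, 13.1 and 7.87 CPM in Gpr115-KO (0.17, SE 0.27, adjusted p = 0.839). For each partner the libraries of both genotypes overlapped.

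Fibroblast and follicle markers, from cells that make type VI collagen, had a median of −0.21 over the 6 tested. Bmp3, a ligand of the BMP family, read 946, 971 and 643 CPM in WT against 503, 265 and 478 CPM in Gpr115-KO (log2 fold change −1.04, SE 0.27, adjusted p = 0.210), and was called by DESeq2 (adjusted p = 0.0111) and by edgeR without the count filter (adjusted p = 0.00027). Prrx1, a mesenchymal transcription factor, stood at 0.34 (adjusted p = 0.581). Schwann cell markers, from nerves that also carry type VI and type IV collagen, had a median of −0.13 over 4 tested genes, with Mbp, a myelin protein, at 0.41 (adjusted p = 0.735). Their part in the collagen values was not tested.

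Col7a1, the anchoring fibril collagen beneath epithelia, read 6.08, 6.71 and 4.17 CPM in WT against 4.10, 9.30 and 4.12 CPM in Gpr115-KO (log2 fold change 0.046, SE 0.36, adjusted p = 0.970). Its highest knockout library was replicate 2, the one richest in summed ameloblast marker counts but lowest in the median of that list. Ameloblast markers had a median of 0.044 over 7 genes, with 4 above 0 and 3 below. Their 2 named members, Amelx (amelogenin, 0.52, adjusted p = 0.510) and Mmp20 (the enamel protease, 0.39, adjusted p = 0.512), did not pass the test. Amelx read 46000 CPM in that library against 20767 to 28655 CPM in the other 5, and its fold change was 0.19 without it. Col18a1, a basement membrane collagen whose end fragment is endostatin, read 15.3, 14.8 and 17.8 CPM in WT against 20.5, 13.5 and 18.1 CPM in Gpr115-KO (0.12, SE 0.21, adjusted p = 0.852).

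Col23a1, described because of its level, read 59.5, 51.5 and 40.2 CPM in WT against 48.4, 39.4 and 65.3 CPM in Gpr115-KO (log2 fold change 0.019, SE 0.21, adjusted p = 0.980). The other tested members (Col5a3, Col4a3, Col4a4, Col4a6, Col8a1, Col8a2, Col16a1, Col22a1, Col13a1, Col15a1, Col25a1, Col26a1 and Col28a1) had fold changes from −0.47 to 1.16 and adjusted p from 0.458 to 0.988, and for none did the libraries separate. The upper end of that range was Col13a1, at 0.363, 0.227 and 1.42 CPM in WT against 2.51, 2.14 and 0 CPM in Gpr115-KO, with an SE of 1.07. Col19a1, Col6a5 and Col6a6 did not pass the count filter.

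Because chains of a collagen type assemble together, the ratio of their counts per kb was compared between genotypes in 6 pairs, with an exact permutation test over libraries (two-sided; 3 against 3 cannot go below p = 0.10). Col1a1 to Col1a2 was 4.16 ± 0.687 (SD, n = 3) in WT and 3.90 ± 0.406 in Gpr115-KO, and lay between 3.48 and 4.85 in all 6 libraries (log2 difference −0.087, exact p = 0.7). Type I protein usually holds 2 chains from Col1a1 for each from Col1a2. The size of the mRNA ratio depends on the gene model: with the union of all annotated exons as the length, it was 8.74 in WT, since the Col1a2 model then grows from 5348 to 12426 bp.

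Col4a1 to Col4a2 was 3.46 ± 0.725 in WT and 3.57 ± 0.783 in Gpr115-KO (log2 difference 0.047, exact p = 1.0). Col5a1 to Col5a2 was 0.0408 in both (log2 difference −0.0021, exact p = 1.0), so that the Col5a1 transcript was the scarcer of the pair in every library. Col11a1 to Col11a2 was 0.567 ± 0.0985 in WT and 0.670 ± 0.169 in Gpr115-KO (log2 difference 0.22, exact p = 0.5).

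The widest genotype difference of a ratio was Col6a1 to Col6a2, at 1.38 ± 0.295 in WT and 2.17 ± 0.837 in Gpr115-KO (log2 difference 0.60, exact p = 0.3). Its range was set by knockout replicate 1, at 3.14, while replicates 2 and 3, at 1.70 and 1.67, lay within the WT range of 1.19 to 1.72. Without replicate 1 the log2 difference was 0.31, and with union-of-exons lengths the WT ratio was 2.73. Col3a1 to Col1a1, a ratio between types and not between partner chains, varied most within a genotype: it ran from 0.0140 in WT replicate 3 to 0.0445 in WT replicate 1, and from 0.0206 to 0.0258 in Gpr115-KO (log2 difference −0.018, exact p = 1.0). After adjustment over the 6 pairs every p was 1.0.

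**Figure D5:**
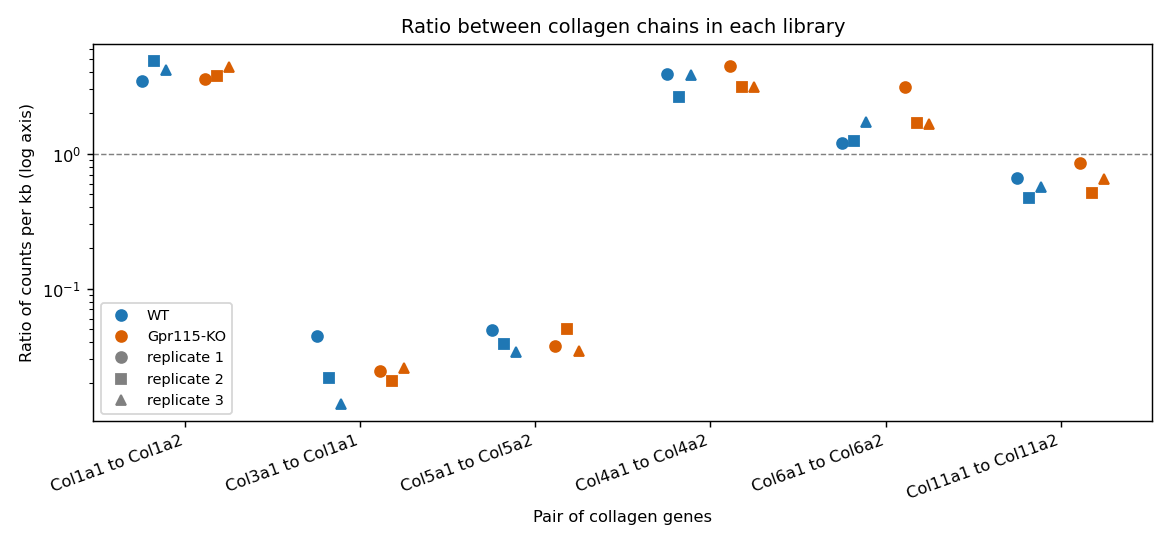
Ratio of counts per kb for 6 pairs of collagen genes in each library (log axis; the dashed line marks a ratio of 1); blue is WT, orange Gpr115-KO, and symbols mark the replicate number. The Col1a1 to Col1a2 ratio stays between 3.48 and 4.85 in all libraries, the Col3a1 to Col1a1 ratio spreads from 0.0140 to 0.0445 within WT, and Col6a1 to Col6a2 reaches 3.14 in knockout replicate 1.

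Genes that act on collagens were read from the same fit, by stage of collagen assembly. Of the 22 genes for folding and modification of the chains in the endoplasmic reticulum, all were tested, 18 lay above 0 and 4 below, and the median was 0.18. None was called by edgeR, DESeq2 or voom, 2 had an unadjusted p under 0.05, and the libraries of the same 2 did not overlap. That is 9.09% of the list, below the 12.3% and 17.5% of all genes tested. The 2 genes are described because the naming rule takes the smallest p of each list. Plod2, a lysyl hydroxylase that prepares the chains for crosslinking, read 57.0, 60.0 and 72.1 CPM in WT against 76.2, 92.0 and 77 CPM in Gpr115-KO (log2 fold change 0.38, SE 0.16, adjusted p = 0.369). P4hb, the disulfide isomerase that is also a subunit of prolyl 4-hydroxylase, read 649, 753 and 783 CPM in WT against 885, 1022 and 954 CPM in Gpr115-KO (0.39, SE 0.18, adjusted p = 0.402).

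Of the export and processing genes, 11 of 14 were tested, with 4 above 0, 7 below, a median of −0.12 and 0 called by edgeR, DESeq2 or voom. The 2 with an unadjusted p under 0.05 (18.2%, against 12.3% of all genes tested) pointed in opposite directions. Bmp1, the protease that removes the C-terminal propeptide, read 28.7, 34.7 and 43.2 CPM in WT against 43.4, 48.6 and 49.9 CPM in Gpr115-KO (log2 fold change 0.42, SE 0.18, adjusted p = 0.371). Adamts14, a protease of the N-terminal propeptide, read 7.71, 13.6 and 15.7 CPM in WT against 6.49, 5.66 and 8.87 CPM in Gpr115-KO (−0.81, SE 0.30, adjusted p = 0.314). The Bmp1 libraries separated by a narrow margin, and the Adamts14 libraries overlapped.

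Crosslinking enzymes and fibril partners were tested for 12 of 13 genes, with 10 above 0, 2 below, a median of 0.21, and 0 called at an adjusted or unadjusted p under 0.05 by edgeR, DESeq2 or voom. Postn, periostin (log2 fold change 0.34, adjusted p = 0.502), and Loxl1, a lysyl oxidase (0.86, adjusted p = 0.560), had the smallest p of that list. Collagen receptors were tested for 9 of 10 genes, with 5 above 0, 4 below, a median of 0.13, 0 called by edgeR, DESeq2 or voom and 2 at an edgeR unadjusted p under 0.05 (22.2%, against 12.3% of all genes tested). Itga11, an integrin chain that binds type I collagen, read 21.0, 24.9 and 20.2 CPM in WT against 16.8, 9.73 and 13.3 CPM in Gpr115-KO (−0.74, SE 0.22, unadjusted p = 0.00700, adjusted p = 0.259), with all knockout libraries below all WT libraries. Ddr1, a collagen receptor kinase of epithelia that also lies on chromosome 17, read 24.2, 27.3 and 25.0 CPM in WT against 41, 39.1 and 25.2 CPM in Gpr115-KO (0.46, SE 0.20, adjusted p = 0.382).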

How the data were processed

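The deposited files hold raw read counts per gene and a normalised table with gene names, in both of which each column is 1 library; RNA-seq libraries were made with Nextera XT and read as 150 nt pairs on a HiSeq 1500, per the labels' protocols. The submitters' processing notes list STAR 2.5.2a beside DESeq2, edgeR and limma, with the builds GRCm38 and mm10. Counting tool and strand setting: not given in the sources used here. Values in the authors' normalised table are TMM-scaled CPM (a signal, not raw counts): multiplied by the effective library size, 100% of the deposited values gave whole reads (tolerance 0.01) equal to the counts.

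The raw counts were tested with edgeR 4.0.16 (TMM, filterByExpr with a minimum count of 10 and a minimum total of 15, robust quasi-likelihood F test, two-sided, R 4.3.3), WT 3 against Gpr115-KO 3, with Benjamini-Hochberg adjustment over 16011 genes; 24 were called, and 24 also on the recovered reads. The 15 transgene rows, with at most 8 counts in a library, stayed out. The common biological coefficient of variation was 23.1%. On simulated counts (15655 genes, 200 changed), the fit made 131 calls, 6 of them false. It recovered 34.0% of genes changed by 1 and 96.8% of genes changed by 2 on the log2 scale. Most changes of 1 were thus missed, and smaller ones may be missed too. The simulation gave every gene the common dispersion. No pair of libraries agreed within sampling noise (chi-square per degree of freedom 16.0 to 87.1).

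Levels per kb use the transcript with the longest coding sequence (GENCODE annotation of GRCm38), and glycine runs were counted in frame over its coding sequence, 5 triplets or more. Of the tested genes 99.8% had an entry in the annotation.

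Alternatives were other scalings, filters and tests (DESeq2 1.42.0, limma 3.58.1), offsets for exonic length and GC content, the replicate number as a block, and leaving out each library. The test on recovered reads and the union-of-exons length were chosen after seeing the data. Genes named are 22 collagens set by symbol, any further collagen with an unadjusted p under 0.05 or separate libraries, and in each other list the 2 of smallest p (no list had a call in the edgeR fit described above); 1 gene the rule names is not reported here. The collagen members and the gene lists were chosen with earlier results of these data known, so lists are described by counts and medians without a test.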

Additional observations from a re-analysis of the deposited data

How the results depend on the processing

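No collagen was called under any of the 20 alternatives. The number of collagens at an unadjusted p under 0.05 (3) was 5 without a count filter and 5 with the length offset. These are 12.2% and 13.5% of the members against 10.4% and 11.4% of all genes, so both shares lay above the background. When single libraries were left out the number was 2 to 5, highest without Gpr115-KO replicate 3 (12.8% against 13.9%). Without WT replicate 1 the share was 7.89% against 6.13%. The number with separate libraries (1) was 3 with library totals, 2 without a filter, 2 with the length offset and 2 with the replicate block and that offset, or 8.11%, 4.88%, 5.41% and 5.41% of the members against 19.8%, 12.6%, 16.8% and 16.8% of all genes. It was 2 to 9 without single libraries, highest without Gpr115-KO replicate 3, at 23.1% of the members against 31.4% of all genes. In the other fits without a single library 5.13% to 12.8% of the members separated, against 23.0% to 33.0% of all genes.

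The median of the members (0.12) was 0.21 with library totals, 0.21 with the length offset and 0.044 with the GC offset. The medians of all genes were then 0.093, 0.050 and 0.040. That of the members was 0.084 without a filter, 0.0081 with voom, 0.051 with limma-trend and 0.033 to 0.13 without single libraries. Without single libraries the fibrillar median ran from −0.075 to 0.26 and the network median from −0.18 to 0.11; the network median was −0.24 with voom.

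The labels do not say what a replicate number marks. Same-numbered libraries correlated at 0.27, 0.03 and −0.07, and differently numbered ones at −0.19 to 0.15. These values do not decide whether the samples were paired. With the replicate block 72 genes of the whole table were called in place of 24, none of them a collagen. The median of the members was 0.084 with the replicate block, 0.20 with block and length offset, and −0.017 with block and GC offset. Those of all genes were then 0.0011, 0.039 and 0.026. DESeq2 called 243 genes, the fit without a filter 500 and the fit without Gpr115-KO replicate 1 called 48.

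Some small fold changes turned sign. With the length offset, Col1a2 was 0.14, Col3a1 0.10 and Col12a1 0.14. Library totals put Col1a2 at 0.081 and Col3a1 at 0.042. The GC offset put Col4a2 at −0.038 and Col7a1 at −0.12. Voom gave 0.0067 for Col1a2, −0.042 for Col7a1 and −0.28 for Col9a1, and limma-trend 0.0049, −0.027 and −0.20 for these genes. The replicate block gave 0.0076 for Col1a2, −0.024 for Col7a1 and −0.26 for Col9a1. Block with length offset gave 0.016 for Col1a1, 0.20 for Col1a2, 0.057 for Col3a1, −0.20 for Col9a1 and 0.11 for Col12a1. Block with GC offset gave −0.038 for Col4a2, −0.17 for Col7a1, −0.24 for Col9a1, −0.018 for Col9a2 and −0.017 for Col18a1.

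Leaving out single libraries gave ranges that cross 0 for Col1a1 (−0.39 to 0.14), Col1a2 (−0.21 to 0.26), Col2a1 (−0.046 to 0.41), Col3a1 (−0.30 to 0.19), Col11a1 (−0.15 to 0.28), Col4a1 (−0.031 to 0.22), Col6a3 (−0.0094 to 0.35), Col7a1 (−0.46 to 0.25), Col9a1 (−1.30 to 0.58), Col9a2 (−0.16 to 0.58), Col12a1 (−0.29 to 0.046), Col14a1 (−0.077 to 0.70), Col18a1 (−0.014 to 0.27) and Tnni2 (−0.036 to 1.59). The same held for the log2 ratio differences of Col1a1 to Col1a2 (−0.21 to 0.030), Col3a1 to Col1a1 (−0.40 to 0.43), Col5a1 to Col5a2 (−0.17 to 0.15) and Col4a1 to Col4a2 (−0.14 to 0.15). The causes were not tested. Fold changes of Col5a1, Col5a2, Col11a2, Col24a1, Col27a1, Col4a5, Col6a1, Col6a2 and Col9a3 kept their direction in all 20 alternatives. Depth limits the rare members: the 4 below the count filter had 0 to 23 counts a library, and the tested Col28a1 had 3 to 13.

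Of the marker genes, Rgs5 and Bmp3 were called by DESeq2 (adjusted p = 0.0342 and 0.0111) and without a count filter (0.0037 and 0.00027). Leaving out single libraries moved Dmp1 between −0.61 and −0.061, Spp1 between 0.16 and 1.27, Amelx between 0.19 and 0.72, Mylpf between 0.29 and 1.92, Acta2 between −0.54 and −0.051 and Cnmd between −0.89 and −0.14, with no change of sign.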
